A study of Homo sapiens with 6 samples.

Results

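The serine and one-carbon enzymes considered here are 10 genes of the 33900 in the gene table, found by their names: PHGDH, PSAT1 and PSPH for serine synthesis, SHMT2, MTHFD2, MTHFD1L and ALDH1L2 for the mitochondrial folate branch, and SHMT1, MTHFD1 and TYMS for the cytosolic folate branch. All 10 were found and all 10 were among the 14178 genes tested. They were measured by RNA sequencing in LX-2 cells, an established and here unmodified (wild-type) line of human hepatic stellate cells, the liver cells that make collagen when activated. The comparison covered 3 samples treated with rhSema3C, recombinant human Sema3C, at 300 ng/ml for 48 h and 3 samples treated with PBS, the vehicle, for the same time, to ask how Sema3C acts on stellate cells. The labels call the samples biological replicates but do not say that they came from separate cultures, so the errors measure only the spread between these samples.

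Serine is made from the glycolytic intermediate 3-phosphoglycerate by PHGDH, PSAT1 and PSPH in turn. The serine hydroxymethyltransferases then move a carbon from serine onto tetrahydrofolate, leaving glycine, and they exist as a cytosolic enzyme (SHMT1) and a mitochondrial enzyme (SHMT2). In mitochondria MTHFD2 and MTHFD1L carry this carbon on to formate, and ALDH1L2 can oxidise it to carbon dioxide with production of NADPH. In the cytosol MTHFD1 takes up formate and feeds the carbon into purines, and TYMS uses it to make thymidylate for DNA. Several of these genes are well-known targets of the amino acid response factor ATF4.

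The 10 genes were selected on their measured fold changes in this same comparison, which were already known, so their values are given as a description, with no p-value for any of them. RNA levels were measured, not enzyme activity or the flow of carbon. In bulk samples, a change in the share of expressing cells and a change in RNA per cell cannot be told apart. Levels are given as FPKM (fragments scaled for length and library depth, as the authors computed it). The length behind it does not match the longest coding transcript for every gene, as values of PHGDH and PSAT1 below show. FPKM is thus safest between samples of 1 gene, and levels set between genes depend on those lengths. Log2 fold changes of rhSema3C over PBS, with their standard errors (SE), come from edgeR's fit to the counts of all genes tested, with TMM scaling between samples.

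Total counts on genes ranged from 68267808 to 89245585 per sample, and TMM factors from 0.958 to 0.968 in PBS and from 1.03 to 1.04 with rhSema3C. Mitochondrially encoded genes took 4.75 to 5.42% of counts in PBS and 3.73 to 3.93% with rhSema3C. Fold changes read directly from FPKM lay slightly above the fitted ones, which carry these factors. Of 8 stellate cell markers fixed in a list, 6 were above the minimum for testing, and COL1A2 and DES were under 0.5 FPKM. Of the 6 tested markers, 5 were called lower, against 30.6% of all genes tested. The summed marker level was 1171 to 1228 FPKM in PBS and 922 to 982 FPKM with rhSema3C. Most of that sum was VIM, at 1002 to 1074 FPKM in PBS and 814 to 869 FPKM with rhSema3C. Of 4 hepatocyte markers in the table, ALB, APOA1 and APOB were near 0, and the summed level of 2.63 to 3.15 FPKM in PBS and 3.52 to 4.14 FPKM with rhSema3C was nearly all SERPINA1, which was called higher. Of 4 endothelial markers, PECAM1 and CDH5 were near 0, KDR was at 0.619 to 0.895 FPKM over all samples, and VWF was at 0.0902 to 0.12 FPKM in PBS and 0.542 to 0.760 FPKM with rhSema3C. The endothelial sum was 0.797 to 1.05 and 1.26 to 1.67 FPKM. Of 4 leukocyte markers, PTPRC and CD3E were near 0, while CD68 and CD14 were called lower. The leukocyte sum was 94.4 to 103 FPKM in PBS and 66.8 to 72.6 FPKM with rhSema3C, and was mostly CD68. Of 4 epithelial markers, EPCAM and CDH1 were near 0, KRT19 was under 0.5 FPKM on average, and the sum of 2.37 to 3.92 and 3.20 to 3.68 FPKM was mostly KRT7. The part of these marker levels and of the mitochondrial share in the results below was not tested.

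Promoters of the members are shown first, as a description. RefSeq promoter windows of GRCh38.p14, 250 bases before to 50 after the gene start, were matched by symbol for 7 of the 10 genes. PSPH, SHMT2 and ALDH1L2, all higher with rhSema3C, had no entry. The 5 below, written 5′ to 3′, cover both enzymes of serine synthesis with an entry (PHGDH and PSAT1), both mitochondrial enzymes with an entry (MTHFD2 and MTHFD1L, the latter by the first of its 4 listed starts), and SHMT1 as the cytosolic counterpart. The PHGDH and MTHFD1L windows lie inside the spans that the gene table gives for these genes, downstream of the outermost start. Capitals mark matches, on either strand, to TGATGNAA (the core of the C/EBP-ATF response element), CACGTG (the E-box) and CCAAT (the NF-Y box).
PHGDH (chr1:119711684-119711983, plus strand): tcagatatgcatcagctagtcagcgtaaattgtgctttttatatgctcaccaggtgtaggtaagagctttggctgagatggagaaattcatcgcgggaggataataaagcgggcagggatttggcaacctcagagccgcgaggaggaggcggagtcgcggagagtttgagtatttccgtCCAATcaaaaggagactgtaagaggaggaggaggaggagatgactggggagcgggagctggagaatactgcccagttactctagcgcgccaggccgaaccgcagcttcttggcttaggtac
PSAT1 (chr9:78296875-78297174, plus strand): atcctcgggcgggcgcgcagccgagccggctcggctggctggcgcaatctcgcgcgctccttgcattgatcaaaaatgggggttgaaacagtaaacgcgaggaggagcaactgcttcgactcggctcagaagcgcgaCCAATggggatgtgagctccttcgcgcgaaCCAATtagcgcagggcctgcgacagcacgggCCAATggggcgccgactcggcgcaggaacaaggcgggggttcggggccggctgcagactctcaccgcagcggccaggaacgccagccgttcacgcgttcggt
MTHFD2 (chr2:74198365-74198664, plus strand): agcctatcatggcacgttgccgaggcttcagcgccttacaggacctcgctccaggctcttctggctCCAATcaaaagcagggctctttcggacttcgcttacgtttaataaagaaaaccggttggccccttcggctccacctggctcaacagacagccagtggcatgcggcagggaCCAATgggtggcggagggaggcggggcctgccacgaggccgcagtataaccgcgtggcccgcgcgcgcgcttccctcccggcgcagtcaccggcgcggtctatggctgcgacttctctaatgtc
MTHFD1L (chr6:150866236-150866535, plus strand): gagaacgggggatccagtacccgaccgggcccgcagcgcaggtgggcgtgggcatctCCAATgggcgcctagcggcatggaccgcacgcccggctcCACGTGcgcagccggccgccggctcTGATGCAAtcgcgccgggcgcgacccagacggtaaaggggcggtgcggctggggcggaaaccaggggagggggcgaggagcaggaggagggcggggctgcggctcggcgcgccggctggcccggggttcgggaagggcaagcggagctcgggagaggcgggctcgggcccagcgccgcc
SHMT1 (chr17:18363501-18363800, minus strand): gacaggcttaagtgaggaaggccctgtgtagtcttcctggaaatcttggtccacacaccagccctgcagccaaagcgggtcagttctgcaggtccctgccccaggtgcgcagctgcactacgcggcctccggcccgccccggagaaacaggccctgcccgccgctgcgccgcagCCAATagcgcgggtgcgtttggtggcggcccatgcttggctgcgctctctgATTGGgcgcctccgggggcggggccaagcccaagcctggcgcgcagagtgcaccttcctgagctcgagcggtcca
The CCAAT box was found in the windows of 6 of the 7 genes, against 34.6% of all 35116 promoter windows. These were PHGDH, PSAT1, MTHFD2 and MTHFD1L, which were higher with rhSema3C, and MTHFD1 and SHMT1, which were not. For all 3 motifs a gene counted if any of its windows matched (MTHFD1L had 4), while the share of all promoters is per window. PSAT1 held 3 copies on the sense strand, starting 113, 83 and 52 bases before the gene start. TYMS was the member without a copy. The letters TGATGNAA were found in MTHFD1L, 129 bases before the start shown, and in no other matched member, against 3.62% of all windows. The E-box was found in MTHFD1 and MTHFD1L, against 7.26% of all windows. No matches overlapped. These are matches of letters in a short window and say nothing on whether a factor binds there or elsewhere.

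All 3 genes of serine synthesis were higher with rhSema3C, and PSAT1 changed most. PSAT1 (chromosome 9, 78297125 to 78330093), the aminotransferase of the second step, was at 33.8, 34.8 and 38.1 FPKM in the PBS samples and at 197, 190.5 and 183 FPKM in the rhSema3C samples. The groups did not overlap, and the lowest treated sample lay far above the highest control. Its log2 fold change was 2.32 (SE 0.05), which ranked 25 among the 14178 genes tested. PHGDH (chromosome 1, 119648411 to 119744218), the dehydrogenase that commits 3-phosphoglycerate to serine, was at 27.5, 26.0 and 25.5 FPKM in PBS and at 54.6, 52.9 and 53.0 FPKM with rhSema3C. Its groups did not overlap either, and the log2 fold change was 0.92 (SE 0.04). PSPH (chromosome 7, 56011051 to 56051467), the phosphatase of the last step, was the lowest of the 3 at 5.64, 5.21 and 5.18 FPKM in PBS. With rhSema3C it was at 8.92, 9.78 and 7.90 FPKM, above every PBS sample but with the widest relative spread of the 10 genes in that group (10.6% of its mean). Its log2 fold change was 0.63 (SE 0.09). In PSPH, 8.36% of the 50-base stretches of its longest coding transcript also occur in transcripts of other genes, the pseudogene PSPHP1 among them, so part of its reads may be shared.

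**Figure D1:**
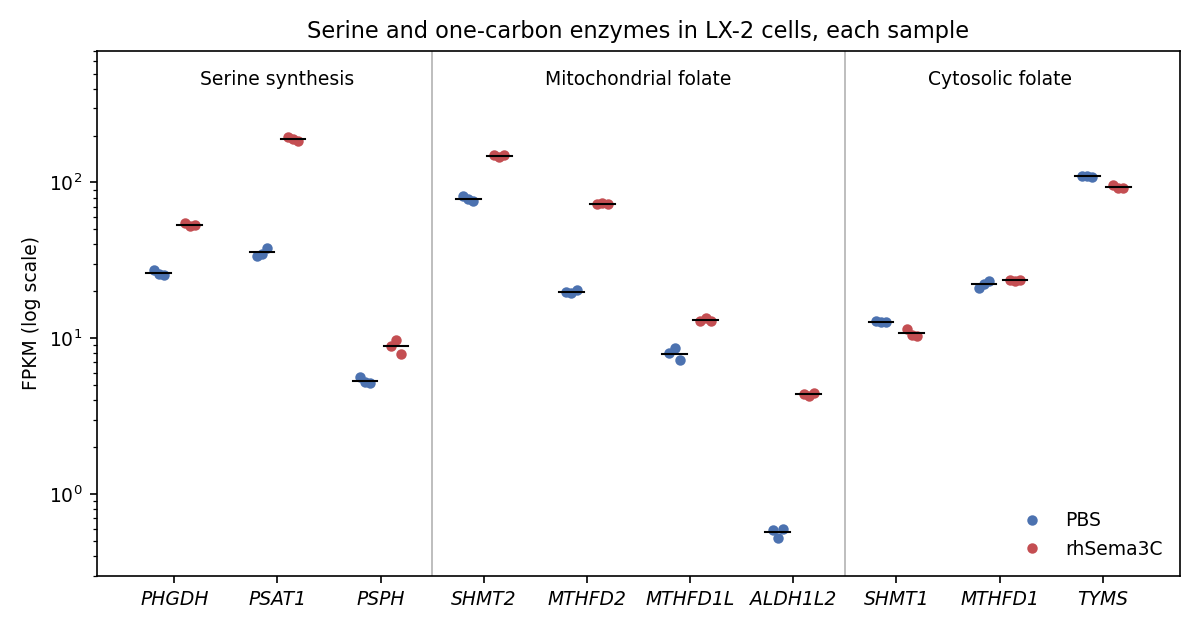
FPKM of each of the 10 genes on a log axis, with 1 point per sample (3 PBS, 3 rhSema3C) and a line at each group mean. The treated points of all serine synthesis and mitochondrial folate genes lie above the PBS points, while TYMS and SHMT1 lie below them and MTHFD1 is nearly level (22.2 and 23.7 FPKM).

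All 4 genes of the mitochondrial folate branch were also higher with rhSema3C. SHMT2 (chromosome 12, 57229573 to 57234935), which takes the carbon from serine, was the most abundant of them at 81.4, 78.9 and 76.1 FPKM in PBS and 149, 145 and 150.3 FPKM with rhSema3C. The log2 fold change was 0.81 (SE 0.04) and the groups did not overlap. MTHFD2 (chromosome 2, 74198610 to 74215298), the dehydrogenase and cyclohydrolase that follows, was at 19.7, 19.6 and 20.6 FPKM in PBS and 72.6, 73.4 and 72.8 FPKM with rhSema3C. The 3 treated values differed by less than 1 FPKM, and the log2 fold change was 1.77 (SE 0.04), rank 76 of all genes tested. MTHFD1L (chromosome 6, 150865549 to 151101887), the synthetase that releases formate, was at 7.999, 8.70 and 7.22 FPKM in PBS and at 12.9, 13.6 and 12.9 FPKM with rhSema3C. Its groups did not overlap, and its log2 fold change of 0.62 (SE 0.07) was the smallest of the branch.

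ALDH1L2 (chromosome 12, 105019784 to 105084458), the mitochondrial formyltetrahydrofolate dehydrogenase, had the lowest level of all 10 genes and the largest log2 fold change in the fit to counts. It was at 0.593, 0.524 and 0.600 FPKM in PBS and at 4.39, 4.27 and 4.43 FPKM with rhSema3C. These values rest on 375 to 514 counts per PBS sample and 3471 to 3682 counts per treated sample. The log2 fold change was 2.82 (SE 0.08), rank 14 of all genes tested. On the log2(FPKM + 1) scale, which compresses low levels, its log2 fold change was 1.77, below those of PSAT1 (2.39) and MTHFD2 (1.82).

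Of the 3 cytosolic genes, TYMS and SHMT1 were lower with rhSema3C and MTHFD1 was nearly level. TYMS (chromosome 18, 657653 to 673578), thymidylate synthase, was the highest of the 10 genes by FPKM in PBS, at 110.8, 110.3 and 108 FPKM. It was at 96.7, 92.8 and 92.5 FPKM with rhSema3C. Every treated sample lay below every PBS sample, and the log2 fold change was -0.33 (SE 0.04). SHMT1 (chromosome 17, 18327860 to 18363563), the cytosolic counterpart of SHMT2, was at 12.9, 12.8 and 12.7 FPKM in PBS and at 11.5, 10.6 and 10.3 FPKM with rhSema3C. Its groups did not overlap and its log2 fold change was -0.35 (SE 0.05). MTHFD1 (chromosome 14, 64388031 to 64463457), the trifunctional cytosolic enzyme, was at 20.9, 22.4 and 23.2 FPKM in PBS and at 23.8, 23.5 and 23.8 FPKM with rhSema3C. On the FPKM scale the treated samples lay just above the PBS samples, while on the TMM scale the groups overlapped and the log2 fold change was -0.01 (SE 0.05).

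The sign of the MTHFD1 difference and the size of the other cytosolic differences depended on the scaling. With values rescaled to TPM, the median of all genes moved from 0.02 to 0.23 on the log2 scale, and SHMT1, TYMS and MTHFD1 had log2 fold changes of -0.12, -0.10 and 0.22. Relative to the median of all genes under that scaling, they were at -0.35, -0.33 and -0.01. With library size alone the median of all genes was 0.13, and MTHFD1 was at 0.10. Over all 14 alternative settings, the log2 fold change relative to the median of all genes stayed between -0.43 and -0.24 for SHMT1, between -0.41 and -0.22 for TYMS, and between -0.09 and 0.10 for MTHFD1. For the 7 genes that rose, the smallest such value was 0.52, for MTHFD1L.

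**Figure D2:**
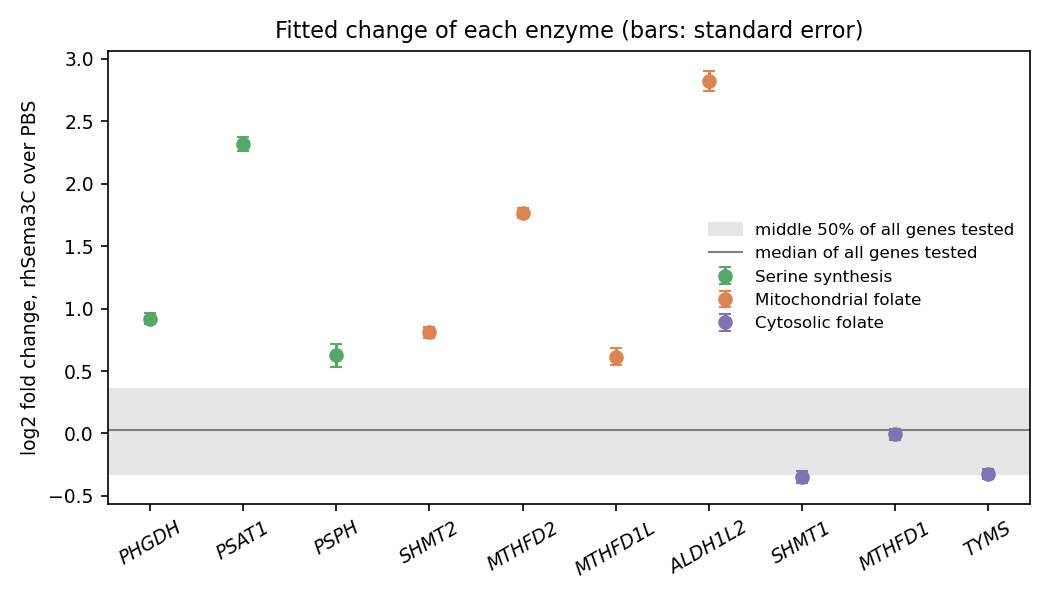
Fitted log2 fold change of rhSema3C over PBS for each gene, with bars of 1 standard error (3 samples per group), coloured by branch. The grey line and band are the median (0.02) and the middle 50% (-0.32 to 0.36) of the 14178 genes tested. The serine synthesis and mitochondrial genes lie above the band, and the cytosolic genes lie in it or just under it.

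At an adjusted p below 0.05 in edgeR's quasi-likelihood test, 9 of the 10 genes were called, against 62.3% of all genes tested. Of these, 7 were called higher, against 31.7% of all genes, and 2 lower, against 30.6%. At a fold change above 2 with an unadjusted p below 0.05, 3 of the 10 (PSAT1, MTHFD2 and ALDH1L2) were called, against 5.54% of all genes tested. All 3 were higher, against 3.42% of all genes, and none was lower, against 2.12%. Nothing is read from these counts, since the genes were chosen with this comparison known. Groups that did not overlap on the TMM scale were found in 9 of the 10 genes and in 67.8% of all genes tested.

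The branches were then set side by side. The median log2 fold change was 0.92 for serine synthesis, 1.29 for the mitochondrial folate branch and -0.33 for the cytosolic branch, against 0.02 for all genes tested. As the mean log2 CPM (counts scaled to library size with TMM factors) over its members, the serine synthesis branch went from 6.13 ± 0.02 to 7.41 ± 0.07, the mitochondrial branch from 5.81 ± 0.02 to 7.31 ± 0.00082, and the cytosolic branch from 7.65 ± 0.02 to 7.42 ± 0.04 (SD, n = 3 per group). These CPM are not scaled for transcript length, so they compare a branch between groups and not the branches' levels with one another. The difference between groups was 1.73 larger in the mitochondrial than in the cytosolic branch on this log2 scale, and 1.51 larger in serine synthesis. In each branch, no treated sample overlapped a PBS sample, and 67.8% of all genes tested also had groups that did not overlap.

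The order of the 10 genes by FPKM changed as well. In PBS it was TYMS, SHMT2, PSAT1, PHGDH, MTHFD1, MTHFD2, SHMT1, MTHFD1L, PSPH and ALDH1L2, and with rhSema3C it was PSAT1, SHMT2, TYMS, MTHFD2, PHGDH, MTHFD1, MTHFD1L, SHMT1, PSPH and ALDH1L2. No neighbours in either order had overlapping samples, the closest in PBS being MTHFD1 (lowest 20.9 FPKM) and MTHFD2 (highest 20.6 FPKM). The summed FPKM of all 10 genes rose from 319 ± 1.94 to 619.9 ± 10.6 (SD, n = 3 per group). Of this sum, the cytosolic branch held 45.3% ± 0.28 in PBS and 20.7% ± 0.16 with rhSema3C, while serine synthesis held 21.1% ± 0.54 and 40.8% ± 0.71. The mitochondrial branch held 33.6% ± 0.62 and 38.5% ± 0.76. The order and the shares depend on the lengths used for FPKM. In PBS the mean CPM was 258 for PHGDH and 83.7 for PSAT1, the reverse of their FPKM order. The longest coding transcripts of these genes are 2585 and 2188 bases long.

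Within the pairs of a cytosolic and a mitochondrial enzyme, the mitochondrial form took a larger share with rhSema3C. SHMT2 took 86.0% ± 0.27 of the summed FPKM of SHMT2 and SHMT1 in PBS and 93.2% ± 0.35 with rhSema3C (SD, n = 3 per group). As a ratio of FPKM, SHMT2 was 6.16 ± 0.14 times SHMT1 in PBS and 13.8 ± 0.77 times SHMT1 with rhSema3C. Their mean CPM lay closer together, at 386 and 99.5 in PBS and 676 and 78.2 with rhSema3C. The longest coding transcripts of SHMT2 and SHMT1 are 2537 and 2464 bases long, so the size of the ratio depends on the lengths used for FPKM. MTHFD1L took 26.4% ± 2.33 of the sum of MTHFD1L and MTHFD1 in PBS and 35.7% ± 0.84 with rhSema3C, so the cytosolic MTHFD1 stayed the more abundant of that pair. MTHFD2L, the mitochondrial relative of MTHFD2, was at 0.617 to 0.659 FPKM in PBS and 0.566 to 0.798 FPKM with rhSema3C, and MTHFD2 held 96.9% ± 0.17 and 99.0% ± 0.17 of their sum.

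Most members share their position with a gene on the other strand, and whether the counting used strand is not given in the sources used here. ALDH1L2, the lowest member, overlaps C12orf45, which held 352 to 461 counts per PBS sample and 452 to 550 with rhSema3C. SHMT1 overlaps SMCR8, which was at 14.3 to 15.1 FPKM in PBS and 11.5 to 13.0 FPKM with rhSema3C, and whose log2 fold change of -0.37 (SE 0.05) lay beside the -0.35 of SHMT1. MTHFD1 overlaps ZBTB25, at 1.31 to 1.49 FPKM in PBS and 2.48 to 2.68 FPKM with rhSema3C. These neighbours moved less than ALDH1L2, like SHMT1 and unlike MTHFD1, and their part in the members' values was not tested. TYMS overlaps TYMSOS, at 0.382 to 0.702 FPKM over all samples, and ENOSF1, at 4.49 to 5.19 FPKM in PBS and 5.49 to 6.25 FPKM with rhSema3C. SHMT2 overlaps NDUFA4L2, at 0.427 to 0.542 FPKM in PBS and 0.981 to 1.43 FPKM with rhSema3C, and MTHFD2 overlaps SLC4A5, at 0.0706 to 0.153 FPKM over all samples. MTHFD1L overlaps AL133260.2 and AL138733.1, not analysed here, and PHGDH, PSAT1 and PSPH overlap none. The longest coding transcripts of PHGDH and SHMT2 shared no 50-base stretch with transcripts of other genes, and those of PSAT1, MTHFD2, SHMT1 and MTHFD1 shared 4.72%, 3.13%, 2.61% and 3.73%, mostly with their own pseudogenes. The rows of MTHFD2P7, MTHFD2P6, MTHFD1P1, PSAT1P3 and PSAT1P4, pseudogenes of members, held 12 counts or fewer in every sample.

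The other folate genes, a list of 19 transporters and enzymes, mostly did not pass the test. Of the 14 tested, none rose, 4 fell and 10 did not pass an adjusted p of 0.05. Their median log2 fold change was -0.02. At that threshold, 31.7% of all genes tested were called higher and 30.6% lower. SLC19A1 and SLC46A1, the folate carriers of the cell surface, fell most. SLC19A1 was at 4.01, 4.86 and 4.34 FPKM in PBS and at 2.35, 2.47 and 2.33 FPKM with rhSema3C, which is a log2 difference of -0.99 (SE 0.08). SLC46A1 fell by 0.68 on the log2 scale (SE 0.11). FPGS, which adds glutamates to folate, fell by 0.15 (SE 0.06) and passed in 4 of 14 alternative settings.

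The mitochondrial folate carrier SLC25A32 was at 7.14 to 8.27 FPKM in PBS and 7.35 to 7.70 FPKM with rhSema3C, and its log2 fold change of -0.13 (SE 0.07) did not pass the test. Of the glycine cleavage system, which breaks down glycine in mitochondria, GLDC and AMT were under 0.5 FPKM in every sample. GCSH and DLD had log2 fold changes of 0.10 and 0.09 and did not pass. ALDH1L1, the cytosolic relative of ALDH1L2, was at 0.360 to 0.496 FPKM in PBS and 0.316 to 0.367 FPKM with rhSema3C, too low to be tested. MTHFS had a log2 fold change of -0.04 and did not pass. GGH, MTFMT, MTHFD2L and SARDH did not pass either, and FTCD and DMGDH were too low to be tested.

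Genes that carry serine and glycine or supply their precursor moved in both directions. Of 12 listed, 10 were tested. Among these, 4 rose and 5 fell, against 31.7% and 30.6% of all genes tested. Their median log2 fold change was -0.17. SLC1A4, a carrier of serine and alanine, rose from 5.27, 5.81 and 5.44 FPKM to 9.71, 9.48 and 10.5 FPKM, which is a log2 difference of 0.74 (SE 0.06). SRR, serine racemase, rose by 0.59 on the log2 scale and SLC1A5, a glutamine and serine carrier, by 0.28. PGAM1, the glycolytic mutase that consumes 3-phosphoglycerate, the substrate of PHGDH, fell from 262, 259 and 249 FPKM to 177, 168 and 175 FPKM, which is a log2 difference of -0.67 (SE 0.04). PGK1, which makes 3-phosphoglycerate, rose by 0.20 on the log2 scale, and ENO1, a later enzyme of glycolysis, fell by 0.31 (SE 0.04). SFXN2 and SDSL fell by 0.60 and 0.34, and SFXN1, a mitochondrial serine carrier, fell by 0.23 and passed in 12 of 14 alternative settings.

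In the methionine cycle and transsulfuration, 5 of the 10 genes tested rose and 3 fell, against 31.7% and 30.6% of all genes tested. The list's median log2 fold change was 0.31. CTH, which makes cysteine from cystathionine, rose from 1.45, 1.62 and 1.21 FPKM to 5.19, 4.94 and 4.18 FPKM, which is a log2 difference of 1.63 (SE 0.15). CBS, which joins serine to homocysteine, rose by 0.99 on the log2 scale (SE 0.05), but the table also lists its near-identical copy CBSL at 0.93, and how reads were divided between them is uncertain. MTRR, which keeps methionine synthase active, rose by 0.53 on the log2 scale. MAT2A, which makes S-adenosylmethionine, fell from 77.2, 79.8 and 78.1 FPKM to 52.7, 51.4 and 51.6 FPKM, which is a log2 difference of -0.70 (SE 0.04). AHCY, which removes S-adenosylhomocysteine, fell by 0.45 on the log2 scale, and the low MAT1A by 1.03.

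Among 12 enzymes of purine synthesis, a pathway that draws formyl groups from the folate pool, 4 rose, 5 fell and 3 did not pass. Of all genes tested, 31.7% were called higher and 30.6% lower. The list's median log2 fold change was -0.08. ADSS2, which makes the precursor of AMP, rose by 0.56 on the log2 scale (SE 0.06), PPAT by 0.27 and GART by 0.23. PFAS fell by 0.56 (SE 0.06), IMPDH1 by 0.27 and ADSL by 0.19. PPAT passed in 10 of 13 alternative settings and ADSL in 10 of 14, with a change of sign in 1. ATIC, which uses a folate-borne formyl group with GART, was at 23.6 to 24.4 FPKM in PBS and 26.0 to 28.2 FPKM with rhSema3C, and its log2 fold change of 0.05 (SE 0.05) did not pass.

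TYMS was lower beside other genes of DNA synthesis. Of 17 genes of S phase and nucleotide supply, 13 were lower, 2 higher and 2 did not pass. Among all genes tested, 30.6% were called lower and 31.7% higher. The list's median of -0.35 was close to the log2 fold change of TYMS. UHRF1, RRM2 (a subunit of ribonucleotide reductase) and TK1 (thymidine kinase) fell most, by 0.93, 0.87 and 0.76 on the log2 scale. TK1, which makes thymidylate by the salvage route, was at 181, 179.5 and 175 FPKM in PBS and at 114, 115 and 111 FPKM with rhSema3C. MCM6 and RRM1 rose, by 0.28 and 0.12, and RRM1 passed in 8 of 14 alternative settings. The part of cell cycle state in the TYMS values was not tested.

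Of 8 regulators listed beside the pathway, 6 rose, against 31.7% of all genes tested, and 2 did not pass. The list's median log2 fold change was 0.98. ATF4 itself was at 105, 108 and 107 FPKM in PBS and at 219, 227 and 225 FPKM with rhSema3C, which is a log2 difference of 0.96 (SE 0.04). TRIB3, CEBPG and DDIT3, all known targets of ATF4, rose by 2.24, 1.90 and 1.78 on the log2 scale. CEBPB, whose log2 fold change was 0.20 (SE 0.09), did not pass. MYC, another known regulator of serine and folate enzymes, was at 14.0 to 15.9 FPKM in PBS and 15.7 to 17.6 FPKM with rhSema3C, and its log2 fold change of 0.04 (SE 0.06) did not pass. The part of any of these regulators in the members' values was not tested.

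The genes most like the branches in pattern were found among 12216 other genes above 1 FPKM on average, by the root mean square distance between log2 CPM values centred on each gene's mean over the 6 samples. Nearest to the mean profile of serine synthesis were LINC02154 (distance 0.03), WSB1 and OGT (0.04 each), with log2 fold changes of 1.26, 1.32 and 1.32. Nearest to the mean profile of the mitochondrial branch were HILPDA and SYT1 (0.03 each) and IARS1 (0.04), with log2 fold changes of 1.47, 1.53 and 1.45. IARS1, the isoleucyl-tRNA synthetase, was the most abundant of these 3, at a mean of 31.8 FPKM in PBS and 93.5 FPKM with rhSema3C. With 6 samples in 2 groups, any gene with a like difference between groups and a small spread lies near these profiles.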

How the data were processed

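RNA of LX-2 cells (3 rhSema3C and 3 PBS samples, grouped and numbered by the sample titles) was sequenced by the authors on an Illumina NovaSeq instrument, and they name the Cufflinks package and cuffmerge for differential expression. The aligner, counting tool, strand setting and genome build are not given in the sources used here. The members' positions match GRCh38. The deposited table gives, for each sample, raw counts of every gene and FPKM values that the authors computed.

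Genes averaging 0.5 FPKM or more over the 6 samples were tested with edgeR's quasi-likelihood test (TMM factors, treatment as the one term), with Benjamini-Hochberg adjustment over all 14178 of them. Each SE was taken as the log2 fold change over the root of its F statistic. The common biological coefficient of variation was 0.117, and replicates of a group differed by more than counting noise (chi-square per degree of freedom 15.9 to 27.7).

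The members and lists were chosen with earlier results of these data known. Named genes were all 10 members, any other folate gene (some counted in the list are not reported here by name), the 3 largest rises and falls past the test with 1 FPKM or more in each list, and the 3 genes nearest in pattern to each of 2 branches. PGK1, ENO1, SFXN1, ATIC, ATF4, MYC and CEBPB were added after their values were seen. On simulated counts for the 14178 genes of this comparison, edgeR recovered 82.5% of 200 genes changed 2-fold, with 10 false calls. As many genes were raised as lowered there, and far fewer changed than the 62.3% called here. The simulation therefore does not cover scaling or false calls under so broad a change. Alternatives covered scaling, test, filter, unit, a replicate block and leaving out each sample. Gene overlaps and shared stretches came from GENCODE 29. A planned comparison of protein sequences was not made. The software was edgeR 4.0.16, limma 3.58.1 and DESeq2 1.42.0 in R 4.3.3, and Python 3.11.15 with matplotlib 3.10.9.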

Additional observations from a re-analysis of the deposited data

How the results depend on the processing

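The 7 serine synthesis and mitochondrial genes kept their direction in every alternative run that tested them. ALDH1L2 was not in the run with a mean of at least 5 FPKM. Leaving out 1 sample at a time left 7 members higher and 2 lower throughout. The log2 fold change of MTHFD1 changed sign, to 0.10 with library size alone, 0.10 with a mean of at least 5 FPKM, 0.0928 with limma on log2(FPKM + 1), 0.22 with limma on log2(TPM + 1), 0.0063 without PBS replicate 2, 0.0218 without PBS replicate 3 and 0.00083 without rhSema3C replicate 2. Over leaving out each sample it ranged from -0.0479 to 0.0218. The median of all genes was 0.13 with library size alone, 0.09 with limma on FPKM and 0.23 with TPM. MTHFD1 was called in 1 of 14 alternatives (TPM) and SHMT1 in 13 of 14.

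In the order library size alone, at least 5 FPKM, limma on FPKM and limma on TPM, the branch median was -0.22, -0.22, -0.22 and -0.10 for the cytosolic branch, 1.40, 0.91, 1.34 and 1.51 for the mitochondrial branch, and 1.03, 1.02, 1.00 and 1.14 for serine synthesis. The mitochondrial value of 0.91 rests on fewer genes, since ALDH1L2 lies under 5 FPKM. From counts in place of FPKM, SHMT2 held 79.5% (PBS) and 89.6% (rhSema3C) of its pair, MTHFD1L 12.9% and 18.6%, and MTHFD2 93.8% and 98.0%. Counts are not scaled for length, and the longest coding transcripts of SHMT2 and SHMT1 are 2537 and 2464 bases long. The part of the lengths used for FPKM in these shifts was not tested.

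Over all genes, 2630 were higher and 2602 lower with at least 5 FPKM (6971 genes tested), and 6934 higher and 2428 lower with TPM. Past a fold change of 2, 1284 were higher and 726 lower among all 33900 genes, 167 and 71 with at least 5 FPKM, 173 and 76 with limma on FPKM, and 95 lower with TPM. With TPM, 1 member was called lower. The other folate genes called higher numbered 2 with library size alone, 1 with all genes, 1 with at least 5 FPKM, 1 with limma on FPKM and 6 with TPM, and 0 to 1 on leaving out a sample, and those called lower 1 with at least 5 FPKM and 2 with TPM. With TPM, 1 gene of serine and glycine handling was lower, and with at least 5 FPKM, 3 methionine cycle genes were higher. Purine genes called lower numbered 2 with library size alone, 2 with at least 5 FPKM, 2 with limma on FPKM and 1 with TPM. S phase genes called higher numbered 1 with all genes, 4 with TPM and 1 to 2 on leaving out a sample. The causes of these shifts in counts were not tested beyond the number of genes entering.

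Samples sharing a replicate number did not deviate together (correlations -0.0041, 0.058 and -0.027), so the numbers were not taken as pairs. With the replicate block 4221 genes were higher and 4120 lower, 7 members were higher and 2 lower, and 1 S phase gene was higher.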

Other observations

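The table's own KEGG annotation holds further genes of neighbouring pathways, and those named here were chosen after their values were seen. Of 31 tested genes of cysteine and methionine metabolism outside the lists above, 12 rose and 9 fell. The shares of all genes tested were 31.7% and 30.6%. The median log2 fold change of the 31 was -0.01. BCAT1, the cytosolic branched-chain aminotransferase, rose by 1.02 on the log2 scale (SE 0.06) and KYAT3, a kynurenine aminotransferase, by 1.12 (SE 0.08). GOT2, the mitochondrial aspartate aminotransferase, fell by 0.66 (SE 0.05). Of 10 tested genes of glycine, serine and threonine metabolism outside the lists, 3 rose and 4 fell, against the same shares. Their median was -0.20. GCAT, which breaks down threonine to glycine in mitochondria, fell by 0.31 (SE 0.08).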
